A study of Rattus norvegicus with 19 samples.

Results

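Transcripts of 7 ion channel genes that let sensory neurons respond to heat, cold, irritants and acid (Trpv1, Trpv2, Trpa1, Trpm8, Asic1, Asic2 and Asic3) were examined in the T11 dorsal root ganglion of rats whose neighbouring skin nerves had been cut. All probe sets that the platform annotation names for 1 of these genes alone were taken, and 6 of the 7 genes had at least 1, out of 14217 genes with a named probe set on the array. They had 12 probe sets in all: 3 for Trpv1, 4 for Asic1, 2 for Asic2 and 1 each for Trpv2, Trpm8 and Asic3. Trpa1, the channel for mustard oil and other irritants, had no probe set under its name and was not analysed here. A further probe set annotated to both Trpv1 and Trpv4 was not used, because its signal cannot be assigned to either gene.

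TRP channels are cation channels of the cell membrane, several of which open at particular temperatures or on binding plant compounds. TRPV1 opens with noxious heat, capsaicin and strong acid, TRPV2 has been described as a channel for more intense heat, and TRPM8 opens with cooling and menthol. Acid-sensing ion channels are sodium-selective channels that open when the fluid outside the cell turns acidic, as in inflamed or poorly perfused tissue, and their subunits ASIC1, ASIC2 and ASIC3 combine in groups. In dorsal root ganglia these channels sit mainly on nociceptors and on other sensory neurons that end in skin and muscle.

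The groups were 7 rats at day 7 after surgery, 7 rats at day 14 after surgery and 5 naive rats, all adult female Sprague-Dawley animals, with 1 Affymetrix rat expression array for the single T11 ganglion of each rat. In the operated rats the skin nerves (dorsal and lateral branches) of T9, T10, T12 and T13 were transected unilaterally and those of T11 spared, which makes the spared nerves sprout into the denervated skin. Day 7 was taken by the study as the time when sprouting starts and day 14 as the time when it is maintained. The naive rats had no operation, so effects of surgery as such and of the nerve cuts cannot be told apart. Every ganglion is a mixture of neurons, glia and other cells, so fewer cells of a type and less RNA per cell cannot be told apart either.

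All 10 sensory neuron markers were measured, and their average log2 level per array lay between 12.37 and 12.53 at day 7, between 12.34 and 12.48 at day 14 and between 12.41 and 12.46 in naive rats. No other tissue was arrayed, so these levels describe the ganglia and do not test their label. Averages of 4 peptidergic nociceptor markers lay between 11.66 and 11.98, 11.54 and 11.92, and 11.60 and 11.78 in the same order of groups. Those of 4 nonpeptidergic markers lay between 12.28 and 12.52, 12.03 and 12.39, and 12.35 and 12.40. Skeletal muscle markers were high on day 7 replicate 7 (10.01), day 14 replicate 2 (8.32) and naive replicate 1 (10.35). Precision was limited by the number of arrays. The standard error of a difference from naive had a median of 0.082 log2 units over the 12 channel probe sets and of 0.080 over all.

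Promoter sequence shows how differently the start regions of these genes are built. RefSeq on assembly GRCr8 gave 7 windows of 250 bases before an annotated start for the 6 measured genes, with 2 starts for Asic2. Capitals mark 3 motifs searched on both strands: the GC box GGGCGG bound by Sp1-type factors, the AP-1 site TGANTCA bound by Fos and Jun family dimers, and the TATA box core TATAAA. Of 33469 windows of this length, 30.5% held a GC box, 6.3% an AP-1 site and 12.9% a TATA core. The 4 windows below belong to the genes that lay lowest against naive at day 14 among those with more than 1 probe set (Asic1, Trpv1) and to the gene with 2 starts and 2 probe sets (Asic2).
Asic1 chr7:132678457-132678706 (+): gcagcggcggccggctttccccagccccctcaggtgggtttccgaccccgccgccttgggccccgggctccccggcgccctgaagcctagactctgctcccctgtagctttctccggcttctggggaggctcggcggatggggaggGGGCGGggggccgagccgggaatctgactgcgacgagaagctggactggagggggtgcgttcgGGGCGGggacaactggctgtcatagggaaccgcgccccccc
Trpv1 chr10:58349686-58349935 (+): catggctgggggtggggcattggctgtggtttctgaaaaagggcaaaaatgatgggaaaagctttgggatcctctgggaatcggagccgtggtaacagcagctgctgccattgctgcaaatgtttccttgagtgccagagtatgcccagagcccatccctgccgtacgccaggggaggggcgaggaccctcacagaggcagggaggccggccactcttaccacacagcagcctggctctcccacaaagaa
Asic2 chr10:66636062-66636311 (-): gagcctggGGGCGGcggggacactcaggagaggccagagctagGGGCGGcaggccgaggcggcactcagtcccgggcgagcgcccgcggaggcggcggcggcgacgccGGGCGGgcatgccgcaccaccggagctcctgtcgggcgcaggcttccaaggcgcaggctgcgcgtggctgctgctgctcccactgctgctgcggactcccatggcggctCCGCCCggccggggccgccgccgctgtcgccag
Asic2 chr10:67438238-67438487 (-): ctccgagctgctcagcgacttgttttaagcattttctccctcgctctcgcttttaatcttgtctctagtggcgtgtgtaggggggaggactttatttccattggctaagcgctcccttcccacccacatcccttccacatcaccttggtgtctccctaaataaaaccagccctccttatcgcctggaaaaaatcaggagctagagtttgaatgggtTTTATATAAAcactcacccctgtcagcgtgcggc
The Asic1 window held 2 GC boxes and was 72.8% G and C. The Trpv1 window held none of the 3 motifs at 58.4% G and C. The start of Asic2 at the lower coordinates had 4 GC boxes and 78.8% G and C, whereas the other start had no GC box, 49.6% G and C and 2 overlapping TATA cores on opposite strands. No AP-1 letters were found in any of the 7 windows, and Trpm8 was the other gene with a TATA core. Which start is used in these ganglia was not measured.

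None of the 12 channel probe sets passed the threshold, an adjusted p of 0.05 in limma over 31042 probe sets, in any comparison. At day 7 against naive 0 of 12 passed, as did 0% of all probe sets, and 1 of 12 had an unadjusted p under 0.05, against 8.7% of all. At day 14 against naive 0 of 12 passed against 0.139% of all, and 3 of 12 had an unadjusted p under 0.05 (2 lower, 1 higher) against 19.7% of all. At day 14 against day 7 the figures were 0 of 12 against 0%, and 1 of 12 against 11.3%. For both operated days pooled against naive they were 0 of 12 against 0.0193%, and 2 of 12 against 14.7%. The median log2 difference of the 12 from naive was -0.05 (day 7) and -0.07 (day 14), with -0.03 at day 14 against day 7 and -0.05 for both days, beside 0.01, 0.02, 0.01 and 0.02 over all probe sets. The differences from naive at day 7 and at day 14 share the naive arrays and are not independent.

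**Figure D1:**
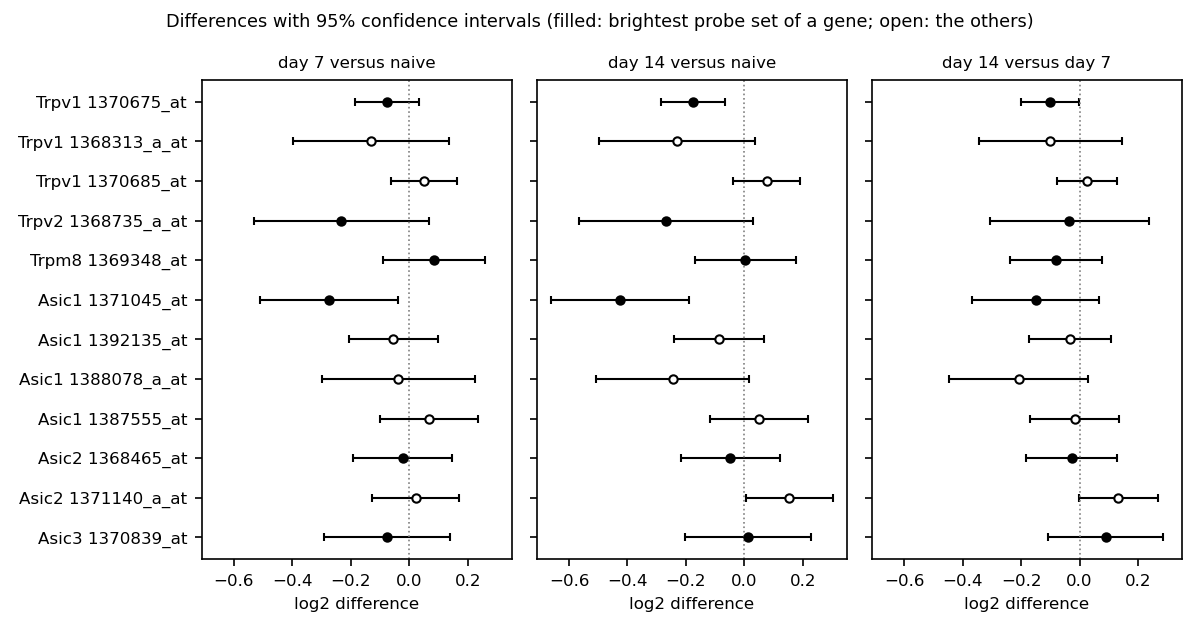
Log2 differences of the 12 probe sets (rows) with 95% confidence intervals (bars), in limma's fit, for day 7 against naive (left), day 14 against naive (middle) and day 14 against day 7 (right). Filled points mark the brightest probe set of each gene, and Asic1 1371045_at lies farthest from 0 at day 14, at -0.43.

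Trpv1, the capsaicin receptor of nociceptors, was lower at day 14 by a small amount that missed the threshold. Its brightest probe set, 1370675_at, had a lowest, median and highest log2 level of 12.06, 12.16 and 12.30 at day 7 and of 11.98, 12.06 and 12.17 at day 14, against 12.19, 12.19, 12.34, 12.29 and 12.19 in naive rats 1 to 5 (naive values follow the replicate numbers throughout). Each of the 7 day 14 arrays read lower than the lowest naive one, which held for 0.751% of all probe sets, and 5 of 7 day 7 arrays did so. The means were 12.16 ± 0.09 (SD, n = 7) at day 7, 12.06 ± 0.06 (SD, n = 7) at day 14 and 12.24 ± 0.07 (SD, n = 5) in naive rats. The day 14 difference from naive was -0.18 ± 0.05 (SE) log2 units, a fold of 0.885, with a 95% confidence interval from -0.29 to -0.07 and a limma adjusted p of 0.107. The day 7 difference was -0.08 ± 0.05 (SE, adjusted p = 0.715), and day 14 differed from day 7 by -0.10 ± 0.05 (SE, adjusted p = 0.435). For both days together the difference was -0.13 ± 0.05 (SE, adjusted p = 0.234).

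The other probe sets of Trpv1 did not all share this pattern. Probe set 1368313_a_at averaged 7.88 ± 0.26 (SD, n = 7) at day 7, 7.78 ± 0.24 (SD, n = 7) at day 14 and 8.01 ± 0.19 (SD, n = 5) in naive rats, a log2 difference of -0.23 ± 0.13 (SE, limma adjusted p = 0.318) at day 14, and 3 of 7 day 14 arrays lay below every naive array. It varied with the brightest probe set over the 19 arrays (Pearson r = 0.81, as a description). The dim 1370685_at had medians of 4.05 at day 7, 4.07 at day 14 and 3.98 in naive rats, and its mean differed from naive by 0.05 at day 7 and 0.08 at day 14. Its mean level over all arrays, 4.04, is below the median of all probe sets, 6.72, as were Asic1 1387555_at (4.68) and Asic2 1371140_a_at (5.38), so 9 of 12 probe sets pass a filter at that median.

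**Figure D2:**
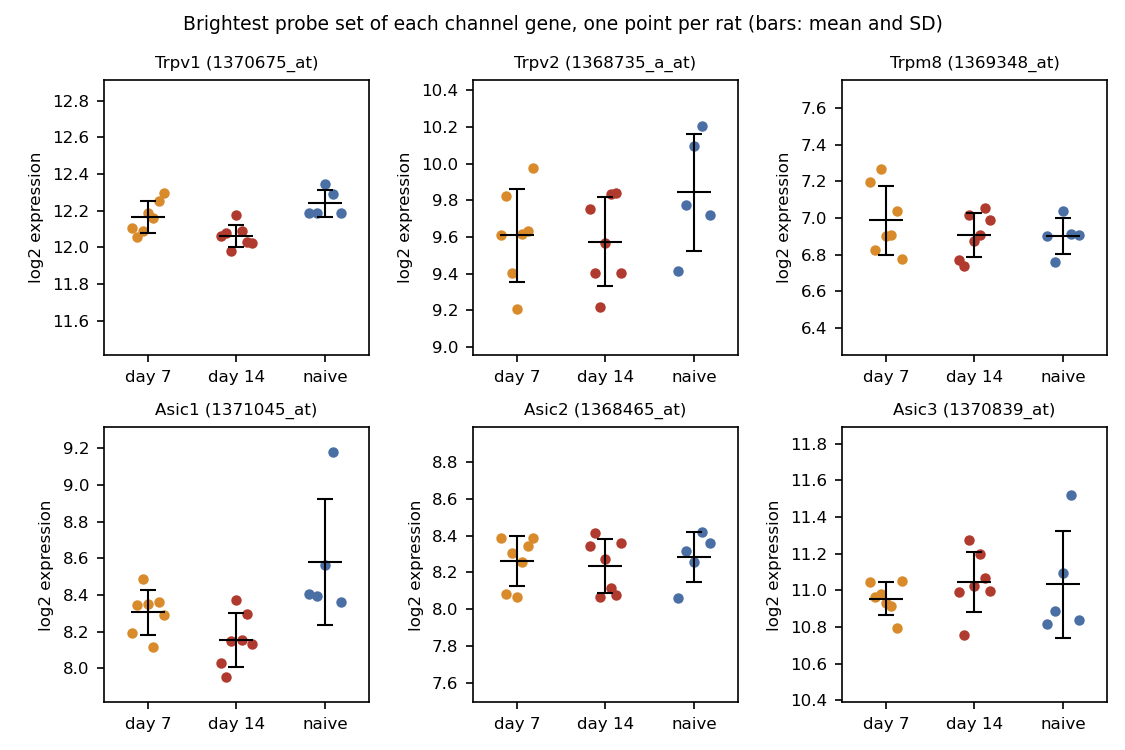
Log2 expression (vertical axes, each spanning the same number of log2 units) of the brightest probe set of the 6 measured genes, with 1 point per rat at day 7, at day 14 and in naive rats, and bars for the mean and SD. The 7 day 14 points of Trpv1 lie below all 5 naive points, and naive replicate 4 stands highest for Trpv2, Asic1, Asic2 and Asic3.

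Trpv2, a relative of Trpv1 found on larger sensory neurons and also outside neurons, differed widely between rats of every group. Its lowest, median and highest levels were 9.21, 9.61 and 9.97 at day 7 and 9.22, 9.57 and 9.84 at day 14, against 9.41, 9.77, 10.10, 10.21 and 9.72 in naive rats. All 3 groups overlapped. The log2 difference from naive was -0.23 ± 0.14 (SE) at day 7 (limma adjusted p = 0.674) and -0.27 ± 0.14 (SE) at day 14 (adjusted p = 0.301), and day 14 differed from day 7 by -0.04 ± 0.13 (SE). Without the 3 arrays high in muscle markers the day 7 difference was -0.40 (adjusted p = 0.276), and without naive replicate 4 the 2 differences were -0.14 and -0.18.

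Trpm8, the menthol and cold channel of a small group of sensory neurons, showed no difference beyond the spread between rats. Its lowest, median and highest levels were 6.78, 6.91 and 7.27 at day 7 and 6.74, 6.91 and 7.05 at day 14, against 6.90, 6.76, 7.04, 6.91 and 6.91 in naive rats, and the groups overlapped throughout. The difference from naive was 0.08 ± 0.08 (SE, limma adjusted p = 0.816) at day 7. At day 14 the 95% confidence interval ran from -0.17 to 0.18, which bounds the fold between 0.889 and 1.13.

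Asic1, a proton-gated subunit that also works alone, lay lowest against naive by its brightest probe set, and it too missed the threshold. Its brightest probe set, 1371045_at, had a lowest, median and highest level of 8.12, 8.35 and 8.49 at day 7 and of 7.95, 8.15 and 8.37 at day 14, against 8.40, 8.40, 8.56, 9.18 and 8.36 in naive rats. At each day 6 of 7 arrays lay below every naive array, at day 7 by a hair: replicate 6 read 8.361 and the lowest naive array 8.363. The share of all probe sets was not computed for counts short of 7 of 7, so these counts are a description. Naive replicate 4, at 9.18, stood apart from the other 4 naive rats. The means were 8.31 ± 0.12 (SD, n = 7) at day 7, 8.16 ± 0.15 (SD, n = 7) at day 14 and 8.58 ± 0.34 (SD, n = 5) in naive rats. The day 14 difference from naive was -0.43 ± 0.11 (SE) log2 units, a fold of 0.745, with a 95% confidence interval from -0.66 to -0.19 and a limma adjusted p of 0.086. The day 7 difference was -0.27 ± 0.11 (SE, adjusted p = 0.521), the 2 days differed by -0.15 ± 0.10 (SE, adjusted p = 0.598), and both days together differed from naive by -0.35 ± 0.10 (SE, adjusted p = 0.164).

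The size of the Asic1 difference moved with 1 rat and with a signal of RNA quality. Without naive replicate 4 the day 7 difference was -0.13 and the day 14 difference -0.28 (adjusted p = 0.156). The log2 excess of 3' over 5' probe sets of Gapdh and beta-actin, which grows where transcripts are shortened in amplification or decay, averaged 3.27 ± 0.08 (SD, n = 7) at day 7, 3.26 ± 0.07 (SD, n = 7) at day 14 and 3.42 ± 0.18 (SD, n = 5) in naive rats, and was highest in naive replicate 4 at 3.69. Across all 19 arrays Asic1 varied with it at a Pearson r of 0.84 (permutation p = 0.00015, adjusted p = 0.0018 over 12 tests of 6 genes) and a Spearman rho of 0.57 (permutation p = 0.012, adjusted p = 0.075). The r was 0.61 without naive replicate 4, 0.47 without the 2 arrays farthest from the median excess and 0.80 after group means were removed, and this relation was examined after the data were seen. None of the other 5 genes passed in this family, with r between 0.11 and 0.51. How many of all probe sets vary with the excess as strongly as Asic1 was not computed. With the excess as a covariate the Asic1 differences were -0.06 (day 7) and -0.20 (day 14, limma adjusted p = 0.437). That fit was added after the data were seen. In it 0 of 31042 probe sets passed at day 14 against naive, beside 43 in the main fit, so the covariate did not act on Asic1 alone. The planned fit, with the 3' excess of 3 control transcripts as the covariate, moved the day 7 difference less, from -0.27 to -0.23. The part of the 3' excess in the result was not tested beyond these fits.

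The letters that begin each animal's code in the labels, whose meaning they do not give, also fell unevenly over the groups: 5 of 7 day 14 rats carried AI, which no other rat did. Within prefix AJ the mean of Asic1 was 8.29 at day 7 (n = 5), 8.26 at day 14 (n = 2) and 8.48 in naive rats (n = 2), and within prefix AK it was 8.35 at day 7 (n = 2) and 8.65 in naive rats (n = 3). With the prefix as a block the day 14 difference was -0.25 (limma adjusted p = 0.870). For Trpv1 the mean within AJ was 12.17 at day 7, 12.08 at day 14 and 12.27 in naive rats, and the day 14 difference with the block was -0.18 (adjusted p = 0.777).

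The other 3 probe sets of Asic1 lay closer to naive. Probe set 1392135_at averaged 7.80 ± 0.13 at day 7 (SD, n = 7), 7.77 ± 0.11 at day 14 (SD, n = 7) and 7.86 ± 0.13 in naive rats (SD, n = 5), and its day 14 difference was -0.09 ± 0.07 (SE, limma adjusted p = 0.513). Probe set 1388078_a_at averaged 6.96 ± 0.20 at day 7 (SD, n = 7), 6.75 ± 0.20 at day 14 (SD, n = 7) and 7.00 ± 0.30 in naive rats (SD, n = 5), with a day 14 difference of -0.25 ± 0.13 (SE, adjusted p = 0.280). The dim 1387555_at lay 0.07 above naive at day 7 and 0.05 above it at day 14. Averaged over its 4 probe sets, Asic1 differed from naive by -0.07 at day 7 and -0.18 at day 14 (adjusted p = 0.153). This average counts the dim 1387555_at, with a mean level of 4.68, as much as each brighter probe set. The single Trpv2 probe set stood at -0.23 and -0.27. It has no dim probe set averaged in, so these sizes do not rank Asic1 against Trpv2.

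**Figure D3:**
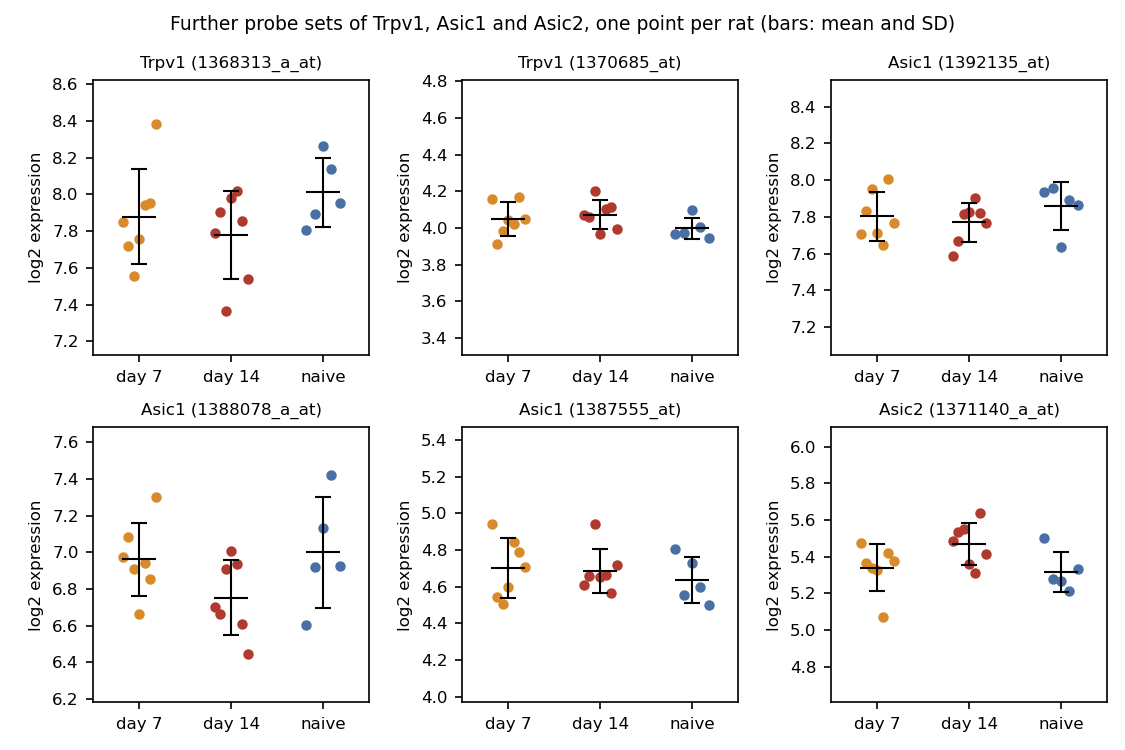
Log2 expression (vertical axes) of the 6 further probe sets of Trpv1, Asic1 and Asic2, with 1 point per rat at day 7, at day 14 and in naive rats, and bars for the mean and SD. The groups overlap in every panel, and within that of Trpv1 1368313_a_at the lowest points, 7.37 and 7.54, are day 14 rats.

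Asic2, a subunit that changes the acid sensitivity of channels it joins, did not differ beyond the spread between rats. Probe set 1368465_at had a lowest, median and highest level of 8.07, 8.30 and 8.39 at day 7 and of 8.07, 8.27 and 8.42 at day 14, against 8.06, 8.31, 8.26, 8.42 and 8.36 in naive rats. The groups overlapped over nearly their whole ranges, and the day 14 difference was -0.05 ± 0.08 (SE, 95% confidence interval -0.22 to 0.12). The dim 1371140_a_at averaged 5.34 ± 0.13 (SD, n = 7) at day 7, 5.47 ± 0.11 (SD, n = 7) at day 14 and 5.32 ± 0.11 (SD, n = 5) in naive rats. It lay above naive at day 14 by 0.15 ± 0.07 (SE, limma adjusted p = 0.236), with 3 of 7 day 14 arrays above every naive array. The 2 probe sets varied separately over the 19 arrays (r = -0.22, as a description). Whether each reports transcripts from a different one of the 2 starts shown above cannot be told here, since probe positions were not used.

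Asic3, the subunit most restricted to sensory neurons and the one that gives sustained currents in mild acid, did not differ between the groups beyond the spread between rats. It had a lowest, median and highest level of 10.80, 10.96 and 11.05 at day 7 and of 10.76, 11.02 and 11.27 at day 14, against 10.82, 10.89, 11.09, 11.52 and 10.84 in naive rats. The groups overlapped, and the highest value of all was again naive replicate 4. Differences from naive were -0.08 ± 0.10 (SE) at day 7 and 0.01 ± 0.10 (SE) at day 14, where the 95% confidence interval from -0.20 to 0.23 bounds the fold between 0.869 and 1.17. Without naive replicate 4 they were 0.04 and 0.13.

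Operated rats differed widely in Atf3, a transcription factor switched on in sensory neurons whose axons are damaged, so the channels were also set against it. Atf3 ran from 7.28 to 11.63 over the 14 operated arrays with no gap that split them. Asic3 was higher in rats with more Atf3 (Pearson r = 0.66, permutation p = 0.0094; Spearman rho = 0.64, permutation p = 0.017; adjusted p = 0.101 for each over 12 tests), which missed the threshold after adjustment. The r of Asic3 was 0.54 without the 2 arrays farthest from the median Atf3 level, 0.30 within day 7 (n = 7, exact permutation p = 0.524) and 0.87 within day 14 (n = 7, exact permutation p = 0.016, adjusted p = 0.193). Trpv2 had an r of 0.45 (adjusted p = 0.399 by permutation), 0.84 within day 7 (n = 7, exact permutation p = 0.016, adjusted p = 0.198) and 0.09 within day 14. The r of Trpv2 rose when arrays were left out: without the 2 farthest from the median Atf3 level it was 0.78, above that of Asic3. Within day 14 it was 0.77 without the 2 farthest of that day, which leaves 2 fewer than 7 arrays. Asic2 had an r of -0.34, with 0.15 within day 7 and -0.81 within day 14 (n = 7, exact permutation p = 0.034, adjusted p = 0.199). Without the 2 farthest arrays these were -0.52, 0.95 and -0.70. Those within a day rest on 2 fewer than 7 arrays, chosen anew for each day, and were not tested. Trpv1 (-0.24), Trpm8 (-0.16) and Asic1 (-0.04) had smaller coefficients, and those of Trpv1 and Asic1 turned to 0.04 and 0.40 when all probe sets of a gene were averaged. In all, 0 of 6 genes passed.

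**Figure D4:**
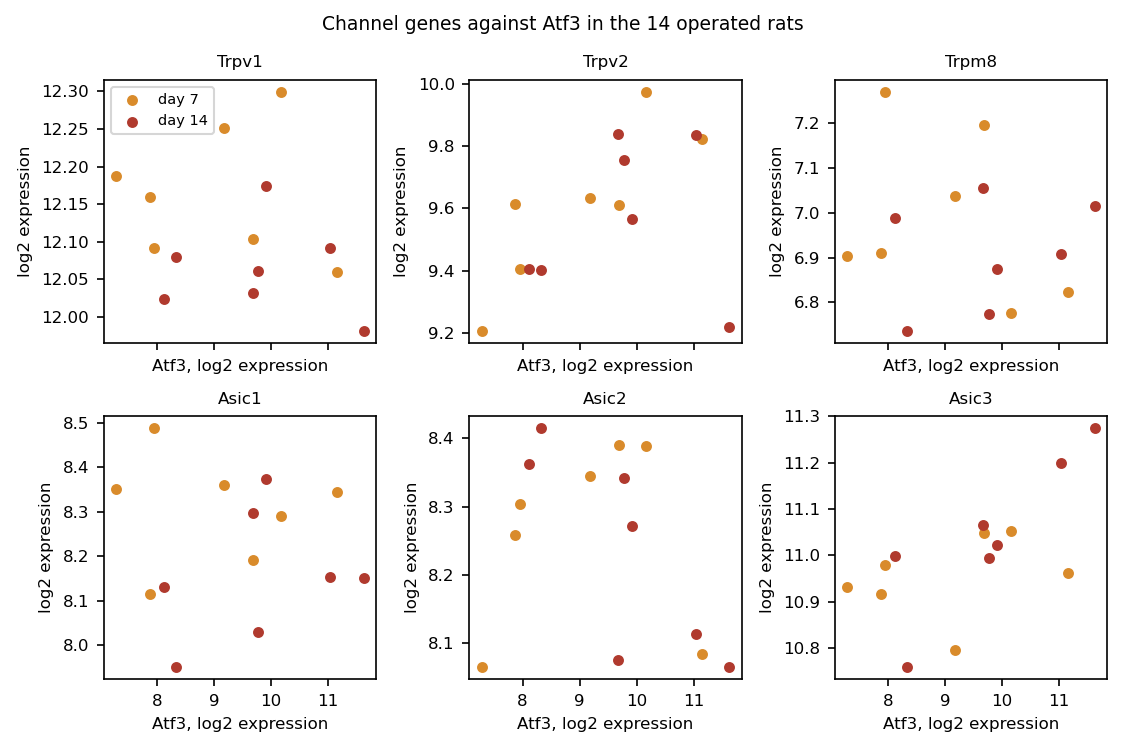
Log2 expression of the brightest probe set of each channel gene (vertical axes) against that of Atf3 (horizontal axes) in the 14 operated rats, coloured by day. Asic3 shows the highest coefficient over the 14 rats (r = 0.66), with the day 14 points along the slope.

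No pair of channel genes varied together beyond the threshold. Among 15 pairs of genes over the 19 arrays, the highest coefficient was that of Asic1 and Trpv1 (Pearson r = 0.60, permutation p = 0.0039; Spearman rho = 0.63, permutation p = 0.0052; adjusted p = 0.077 for each over 30 tests). It was 0.57 without the 2 arrays farthest from the median of Trpv1, which keeps naive replicate 4, the highest for Asic1. After group means were removed it was 0.28. Other pairs moved the opposite way on centring: Asic1 and Asic3 had an r of 0.52, with 0.73 after group means were removed and 0.07 without the 2 arrays farthest from the median of Asic3. Asic3 and Trpv2 had 0.43, with 0.46 after group means were removed and 0.07 without the 2 farthest from the median of Trpv2. The most similar patterns elsewhere on the array, as a description over 19 arrays that share their normalization, were those of Ei24, Ncald and Stac for Trpv1 (r of 0.86, 0.85 and 0.84) and of Top3b, Rnf41 and Pex6 for Trpv2 (0.89, 0.87 and 0.87). Trpm8 was most like Adck1, Cldn6 and Ccdc74a (0.86, 0.81 and 0.81). Asic1 was most like Arhgef1, Vps9d1 and Rusc1 (0.90, 0.89 and 0.89), Asic2 like Cxcr4, Pcdhb9 and Ube2k (0.83, 0.82 and 0.77), and Asic3 like Zyx, Ncln and Pigt (0.87, 0.86 and 0.86).

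Other genes of the same pathways likewise gave no call: 0 of the 69 genes measured out of 87 listed passed in any of the 4 comparisons. Of all probe sets 0% passed at day 7, 0.139% at day 14, 0% between the days and 0.0193% for both days. In that order 14, 27, 14 and 17 of the 106 listed probe sets had an unadjusted limma p under 0.05. The shares of all probe sets were 8.7%, 19.7%, 11.3% and 14.7%. Other TRP channels (16 of 24 genes measured) had a median log2 difference of 0.02 at day 14 against naive by their brightest probe sets, with 9 genes above and 7 below. Their smallest p in each direction were Trpm7, a magnesium-permeable channel with its own kinase, at 0.36 ± 0.13 (SE, limma adjusted p = 0.162), and Trpc2, a channel of pheromone detection in rodents, at -0.34 ± 0.10 (SE, adjusted p = 0.103). For Trpm7 this was the dimmer probe set, and its brightest pointed the other way, at -0.26 (adjusted p = 0.451). The second probe set of Trpc2, its dimmer one, also pointed the other way, at 0.15. Related ASIC and epithelial sodium channel subunits (5 of 5 measured) had a median of 0.12, with Scnn1b at 0.24 ± 0.07 (SE, adjusted p = 0.113) and, in the other direction, a dim probe set of Scnn1a at -0.006 beside 0.12 for its brightest.

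Acid is also sensed by proton receptors and by potassium channels that close or open with pH, of which 7 of 11 were measured, with a median of 0.10 at day 14. Kcnk10, a two-pore potassium channel, had the smallest p of all listed genes: it averaged 5.36 ± 0.19 (SD, n = 7) at day 7, 5.39 ± 0.07 (SD, n = 7) at day 14 and 5.04 ± 0.09 (SD, n = 5) in naive rats, a difference of 0.35 ± 0.08 (SE, limma adjusted p = 0.069) at day 14. Its other and brighter probe set stood at 0.11 (adjusted p = 0.337). Kcnk2, another channel of that family, was at -0.21 ± 0.09 (SE, adjusted p = 0.221), with its second probe set at 0.07. All 3 Kcnk10 means lie well below the median level of all probe sets.

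Proteins that bind or modify TRPV1, TRPA1 and TRPM8 (20 of 22 measured) had a median of 0.02 at day 14. The kinase Src stood at 0.25 ± 0.07 (SE, limma adjusted p = 0.089) in 1 dim probe set, which averaged 5.01 in naive rats. Its 3 others lay between -0.28 and 0.21, and the brightest was the one at -0.28 (adjusted p = 0.204). A dim probe set of the membrane protein Anxa2, at 4.80 in naive rats, stood at -0.17 ± 0.05 (SE, adjusted p = 0.108), with its brighter other at 0.07. Partners of ASICs (8 of 9 measured) had a median of -0.07, with the stomatin relative Stoml1 at 0.28 ± 0.12 (SE, adjusted p = 0.227) and the scaffold protein Magi1 at -0.31 ± 0.11 (SE, adjusted p = 0.142), whose 4 other probe sets lay between -0.13 and 0.17. Receptors and ligands that sensitise the channels (13 of 16 measured) had a median of 0.05. A dim probe set of the serotonin receptor Htr2a, at 4.93 in naive rats, stood at 0.25 ± 0.08 (SE, limma adjusted p = 0.113). Its 3 others lay between -0.07 and 0.09, with the brightest at 0.09. Gfra3, the artemin receptor of nociceptors, stood at -0.20 ± 0.11 (SE, limma adjusted p = 0.325). 

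The related genes of smallest p at day 7 against naive, none past the threshold, began again with Kcnk10, at 0.32 ± 0.08 (SE, limma adjusted p = 0.336), with its brighter probe set at 0.18. Above naive also stood Il1r1, an interleukin-1 receptor (0.34, other probe sets -0.05 and 0.04), Trpv5, an epithelial calcium channel (0.21, other 0.04), Scnn1g (0.16, other -0.02), Cdk5 (0.13) and Stoml2 (0.11). Below naive stood Nherf1, a scaffold protein (-0.25, other -0.02), Trpc2 (-0.24, other 0.07), Anxa2 (-0.15, brighter other 0.08), Bdkrb2, a bradykinin receptor (-0.14, others -0.04 and -0.03), and Kcnk1 (-0.03). For both days against naive the smallest adjusted p was 0.079, for Kcnk10 at 0.34 with 0.14 for its brighter probe set. Il1r1 (0.32, others 0.02 and 0.08), Trpv5 (0.22, other 0.07), Scnn1g (0.19, other 0.02) and Stoml1 (0.19) also stood above naive. A dim probe set of Src stood at 0.13, with its 3 others between -0.29 and 0.12. The brightest Src probe set was the one at -0.29 (adjusted p = 0.221). Magi1 (-0.30, 4 others between -0.09 and 0.16), Trpc2 (-0.29, other 0.11) and Anxa2 (-0.16, brighter other 0.07) stood below naive. Bdkrb2 (-0.13, others -0.02 and 0.09) and Kcnk1 (-0.08) did so too.

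Between the days, the related genes of smallest p higher at day 14 than at day 7 began with a dim probe set of Htr2a (0.29, limma adjusted p = 0.261). Its 3 others lay between -0.03 and 0.04. Scnn1b (0.24), Pkd2 (0.16, other -0.04), Kcnk3 (0.12, others -0.12 and 0.15) and Nherf1 (0.11, other 0.07) were higher too. A dim probe set of Src stood at 0.24, with its 3 others between 0.03 and 0.18 and its brightest at 0.03 (limma adjusted p = 0.939). Lower at day 14 were Kcnk2 (-0.27, adjusted p = 0.312, other 0.02), Trpc6 (-0.26), Gfra3 (-0.17) and Magi1 (-0.15, 4 others between -0.05 and 0.08). Pirt, a membrane protein that binds TRPV1 (-0.12), and Scnn1a (-0.10, other 0.10) were lower too. None of these passed the threshold.

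**Figure D5:**
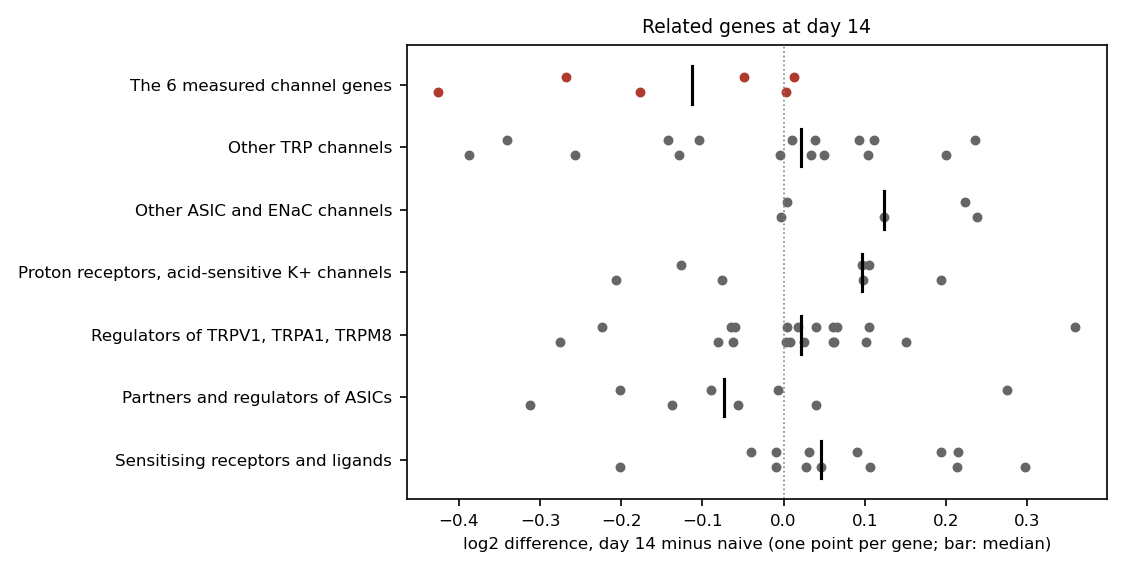
Log2 difference at day 14 against naive (horizontal axis) of the brightest probe set of each gene, with 1 point per gene, for the 6 channel genes (top) and the 6 lists of related genes, and a bar at each median. The channel genes run from -0.43 (Asic1) to 0.01 (Asic3), and no point of any row passed the threshold.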

How the data were processed

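Arrays of single T11 ganglia from 19 rats were analysed, after 1 further naive array had been removed by the submitters for quality, per the labels. RNA went through 2 rounds of amplification, which can shift 3' against 5' signal. The table the authors deposited holds log2 levels, 1 per probe set and array, made with RMA per the submitters' processing notes (background correction, quantile normalization across arrays, summary over probes). limma is named there too. Versions were not given in the sources used here. Quantile normalization hides a shift shared by most transcripts, and levels of different probe sets are not comparable.

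Control probe sets (57 of 31099) were left out. Differences came from limma 3.58.1 in R 4.3.3 (lmFit and eBayes, with 1 model for the 3 groups), and p-values were adjusted by Benjamini-Hochberg over 31042 probe sets and a threshold of 0.05. Replicates are separate rats. Confidence intervals are 95% intervals of that fit. Correlation tests used 100000 permutations, or all orders within a day, two-sided, in Python 3.11.15 with numpy 2.4.6 and pandas 2.3.3. Figures were drawn with matplotlib 3.10.9. The fit was tested on simulated data. Each gene's brightest probe set has the highest mean over all arrays.

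The channel genes and lists were chosen with earlier results of these data known. All channel probe sets are reported. From each list every gene past the threshold, or else the smallest p in each direction, is named for each comparison, and for likeness the 3 genes of highest r. Alternatives numbered 32, of which 2 were added after the data were seen: without the 3 arrays high in muscle markers, and the Gapdh and beta-actin signal as a covariate.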

Additional observations from a re-analysis of the deposited data

Results flagged for a closer look

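In 3 of 36 groups (12 probe sets in 3 groups each) 1 array stood apart from the rest of its group by Dixon's criterion at 95%, where chance would give about 1.8. Asic1 1371045_at read 9.18 on naive replicate 4, and the next naive array read 8.56. Asic1 1387555_at read 4.94 on day 14 replicate 3, and the next read 4.72. Asic2 1371140_a_at read 5.07 on day 7 replicate 5, and the next read 5.33.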

How the results depend on the processing

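No channel value passed in any of the 32 alternatives run for 3 of the comparisons or the 31 run for both days against naive. Of the 12 probe sets, 9 were tested under the filter on dim ones, and 6 gene values with 1 value per gene. The lowest adjusted p reached was 0.056, for Asic1 1371045_at at day 14 against naive. The difference of that probe set ran from -0.48 to -0.20 and that of Trpv1 1370675_at from -0.20 to -0.15 over the 31 alternatives that keep single probe sets, and the gene averages were -0.18 and -0.11. Over all probe sets the calls at day 14 against naive ran from 5 to 401 when 1 array was left out and from 0 to 133 otherwise, beside 43. The median of the channel probe sets at day 14 against naive, -0.07 in the main fit, was -0.18 with a filter on dim probe sets, which leaves 9 of 12. With the prefix as a block it was 0.0041. The day 7 median, -0.05 in the main fit, was 0.0043 without naive replicate 4.

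Of 1494 alternative values, 60 had the opposite direction, and the cause was not tested. With the prefix as a block, day 14 against naive gave 0.051 for Asic1 1392135_at, 0.024 for Asic1 1388078_a_at and -0.016 for Trpm8. That block gave 0.061, 0.028 and 0.056 for Asic1 1392135_at, 1388078_a_at and 1387555_at at day 14 against day 7, and 0.021, 0.010 and 0.020 for Asic1 1392135_at, 1388078_a_at and Asic3 on both days against naive. Adjusting for the 3' excess of 3 control transcripts, day 7 against naive gave 0.023 for Asic1 1388078_a_at, 0.0060 for Asic2 1368465_at and -0.0012 for 1371140_a_at, and both days gave 0.012 for Asic3. With Gapdh and beta-actin alone the same 4 were 0.082, 0.0076, -0.037 and 0.11, and Asic3 at day 7 was 0.060. With 1 value per gene Asic2 stood at 0.00027 at day 7 and 0.053 at day 14 against naive, 0.052 at day 14 against day 7 and 0.026 on both days. Array weights gave -0.022 for Trpm8 at day 14 against naive, and 0.018 for Asic2 1368465_at and 0.018 for Trpv2 at day 14 against day 7. Trpm8 at day 14 was -0.00052 with centred arrays, -0.026 with muscle markers and -0.0061 with neuron markers as a covariate, and Asic3 was -0.011 with muscle markers. Without the 3 arrays high in muscle markers Trpv2 at day 14 against day 7 was 0.055. Gene means gave coefficients of 0.40 for Asic1 and 0.043 for Trpv1 against Atf3.

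After group means were removed, correlations of same-numbered arrays from different groups ran from -0.26 to 0.33. Differently numbered arrays were not compared, so whether replicate numbers pair the arrays cannot be told from these values. With the replicate number as a block, Asic2 1371140_a_at was -0.0011 at day 7 and Trpm8 -0.0037 at day 14 against naive, Asic1 1371045_at -0.44 and Trpv1 1370675_at -0.19, and 0 of 12 probe sets passed.

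Leaving out 1 array each, values ran over -0.14 to 0.068 for Asic1 1388078_a_at, -0.077 to 0.013 for Asic2 1368465_at, -0.0045 to 0.068 for Asic2 1371140_a_at and -0.13 to 0.045 for Asic3 at day 7 against naive. They ran over -0.041 to 0.13 for Asic3 and -0.033 to 0.037 for Trpm8 at day 14 against naive, and over -0.086 to 0.090 for Asic3 on both days. At day 14 against day 7 they ran over -0.059 to 0.022 for Asic1 1387555_at, -0.059 to 0.00084 for 1392135_at, -0.060 to 0.0010 for Asic2 1368465_at and -0.10 to 0.026 for Trpv2. Signal near background limits the 3 dimmest probe sets.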
